A study of Mus musculus with 12 samples.

Results

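Sub-polysomal RNA of METTL7A1-overexpressing 4T1 cells was compared with that of mock cells, in 6 of the 12 RNA-Seq libraries of the study. Libraries were chosen by their labels alone, namely the pool of gradient fractions 3 to 7 in mock replicates A, B and C and in METTL7A1 replicates D, E and F. 4T1 is a mouse mammary gland cancer cell line, mock cells carried the empty vector, and METTL7A1 cells carried a stably integrated vector for FLAG-tagged METTL7A1, a putative methyltransferase. All cells received cycloheximide at 0.1 mg/ml for 5 min, which stalls ribosomes on mRNA, before lysis and separation on a sucrose gradient. The other 6 libraries hold polysomal RNA, fractions 8 to 11 of the same cells, and are used below for side-by-side values. The replicates were biological triplicates of 1 transfected line per genotype, and whether a line came from a single clone is not given in the sources used here.

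A sucrose gradient sorts RNA by its load of ribosomes. Free mRNPs, the small and large ribosomal subunits and monosomes, which are mRNAs with a single ribosome, stay nearer the top of the gradient than polysomes, so the sub-polysomal pool holds mRNA awaiting initiation, mRNA stored or silenced, and much of the non-coding RNA. An RNA can rise in this pool because the cell holds more of it or because less of it sits on polysomes. Libraries of the pool alone do not tell these apart, nor can more cells that express a gene be told from more RNA per cell. The polysomal change is therefore given for some genes and lists, and for the called genes as a whole.

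Total counts lay between 1817520 and 5738989 in mock and between 3670942 and 5171156 in METTL7A1 sub-polysomal libraries, and mock A was the shallowest. Mitochondrial transcripts made up 6.71% to 8.49% of counts in mock and 4.37% to 7.67% in METTL7A1. The first principal component (54.8% of the variance) separated the genotypes, with mock A farthest out. The 8 epithelial markers looked up, such as Krt18, all passed the filter on low values (at least 1 CPM, a count scaled to library size, in 3 libraries), and their summed level was 3105 to 3213 CPM in mock and 3188 to 3848 CPM in METTL7A1. Of 12 leukocyte markers 9 had no read in these 6 libraries, among them Ptprc and Cd3e, and of 8 fibroblast markers 5 had none, among them Col1a2 and Col3a1. Cd68, a lysosomal protein of macrophages, was the one leukocyte marker above the filter, and it rose from 11.3, 7.87 and 8.69 CPM to 17.9, 18.4 and 10.999 CPM (log2 0.80, adjusted p = 0.0329, and 1.56 in polysomal RNA). It did not pass the test with GC offsets, which take out each library's trend with the GC content of transcripts (0.66, adjusted p = 0.0658), nor when mock library B or C or METTL7A1 library D or E was left out. The summed level of leukocyte markers was 8.48 to 11.3 CPM in mock and 11.2 to 19.6 CPM in METTL7A1. No endothelial marker passed the filter, and Kdr and Tek had no read.

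The transfected gene separated the genotypes in every library. Mettl7a1 (chr15:100304180-100328662, GRCm38, plus strand) was at 2.82, 1.26 and 3.16 CPM in mock A, B and C and at 395, 284 and 236 CPM in METTL7A1 D, E and F. Its log2 change was 6.93 (standard error 0.27, adjusted p = 4.51e-12, edgeR). Its paralog Mettl7b, on another chromosome, rose from 24.3, 32.4 and 36.9 CPM to 169.8, 175 and 178 CPM, a log2 change of 2.44 (standard error 0.19, adjusted p = 9.08e-08). Whether reads of the transfected sequence were counted for Mettl7b was not tested. Of 21 tested members of the METTL family of methyltransferase-like proteins, 5 rose and 5 fell at an adjusted p below 0.05. Mettl14, a subunit of the m6A writer complex, fell from 31.6, 22.98 and 22.7 CPM to 12.6, 10.4 and 10.04 CPM (log2 change -1.20, adjusted p = 0.000103).

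Genes were called where the adjusted p was below 0.01 and the log2 change was above 1.5 or below -1.5. Of 12224 genes tested, 183 were called higher in METTL7A1 sub-polysomal RNA (1.5%) and 154 lower (1.26%). The 3 METTL7A1 libraries did not overlap the 3 mock libraries in any of these 337 genes. Over all genes, the groups did not overlap in 2869 with METTL7A1 higher (23.5%) and in 2502 with METTL7A1 lower (20.5%). At an adjusted p below 0.05 with no limit on the size, 2058 genes rose (16.8%) and 1776 fell (14.5%), and gene lists are counted on this rule below. With GC offsets, 1630 of 12157 genes rose and 1477 fell on the same rule. List counts with GC offsets are to be read beside these. Both rules depended on depth: with all libraries thinned to the shallowest, 88 genes were called higher and 54 lower, and 936 rose and 709 fell at an adjusted p below 0.05. Without METTL7A1 replicate E, 158 were called higher and 99 lower. Changes are relative to the typical gene. Scaled to the Actb count instead, the median of all genes was 0.26, 359 genes were called higher and 88 lower, and a list whose median lies between -0.26 and 0 below (helicases, heat shock, proteasome and others) has its median above 0.

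**Figure D1:**
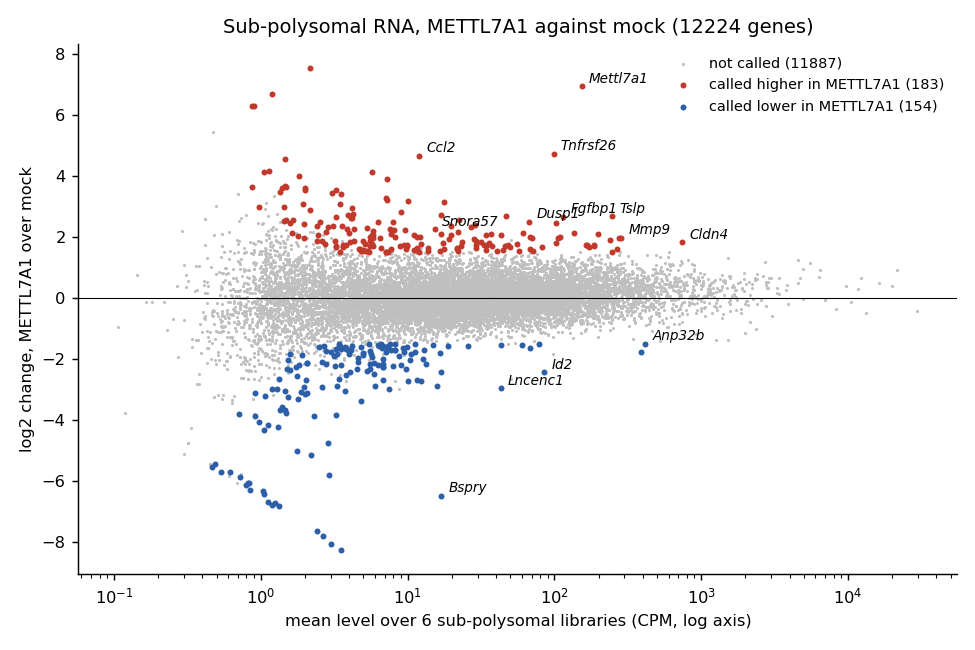
Each point is 1 of 12224 genes, with its mean level over the 6 sub-polysomal libraries in CPM on a log axis (x) and its log2 change, METTL7A1 over mock (y). The 183 genes called higher are red and the 154 called lower are blue. Calls thin out among the most abundant genes. The blue points at the lower left include genes with no read in METTL7A1, whose fitted change is not a measured size.

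Several of the largest rises were genes for secreted or cell-surface proteins. Among called genes with a mean of at least 5 CPM, the largest after Mettl7a1 was Tnfrsf26, a receptor of the TNF receptor superfamily. It lay at 4.51, 6.29 and 9.28 CPM in mock and at 176, 199.99 and 198 CPM in METTL7A1, a 26.3-fold difference (log2 4.72, standard error 0.20, adjusted p = 1.35e-11). Ccl2, a chemokine that attracts monocytes, was nearly absent from mock at 0.564, 1.26 and 0.790 CPM and reached 26.2, 25.1 and 18.4 CPM (log2 4.65, standard error 0.31, adjusted p = 1.36e-08). Tslp, an epithelial cytokine that acts on dendritic cells, was far more abundant and rose from 66.03, 58.5 and 76.000 CPM to 448, 389 and 446 CPM (log2 2.67, adjusted p = 3.04e-09). Both cytokines were above their highest mock value in each METTL7A1 library. Growth factor genes stood beside them. Fgfbp1, a carrier that releases fibroblast growth factors from the matrix, went from 27.7, 32.1 and 33.2 CPM to 219.8, 199.75 and 175 CPM (log2 2.66, adjusted p = 6.76e-09). Bmp7, a ligand of the bone morphogenetic protein family, went from 10.2, 10.1 and 16.2 CPM to 89.5, 83.9 and 72.9 CPM (log2 2.69, adjusted p = 1.65e-08). The spread within each genotype was small against these gaps.

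The other large rises had varied roles. Gzme, a granzyme of the serine protease family, was at 1.69, 0.629 and 1.78 CPM in mock and 18.6, 13.4 and 7.41 CPM in METTL7A1 (log2 3.19). Arhgdib, an inhibitor of small GTPases, was at 1.13, 4.09 and 4.34 CPM and 30.8, 37.2 and 28.2 CPM (log2 3.14). Pmp22, a tetraspan membrane protein of myelin and epithelia, rose by a log2 of 2.82, the sodium channel Scn8a by 2.70 and the basic leucine zipper factor Batf3 by 2.54. Of 2 less characterised genes, D730003K21Rik rose by 4.12 and C130073F10Rik by 3.88. A pair of small nucleolar RNAs, Snora68 and Snora73b, completed the 15 largest rises. Adjusted p for these 9 genes lay between 8.92e-08 (Arhgdib) and 8.34e-05 (Snora68). Gzme has close relatives in a gene cluster, and reads shared with them could not be told apart here.

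The falls were led by Bspry, which encodes a B-box and SPRY domain protein. It had 45, 134 and 169 reads in mock A, B and C and 0, 1 and 3 reads in METTL7A1 D, E and F, or 25.4, 42.2 and 33.4 CPM against 0, 0.248 and 0.717 CPM (log2 -6.50, adjusted p = 1.14e-08). Its METTL7A1 values rest on 4 reads in all, so the size of the fall is uncertain. Lncenc1, a long non-coding RNA first described in embryonic stem cells, fell from 73.9, 71.8 and 84.7 CPM to 6.96, 11.4 and 10.5 CPM (log2 -2.97, standard error 0.21, adjusted p = 1.88e-08). Id2, an inhibitor of basic helix-loop-helix transcription factors, was the most abundant of the 15 and fell from 177, 128 and 130.1 CPM to 23.9, 27.3 and 27.98 CPM (log2 -2.44, adjusted p = 1.03e-07). All METTL7A1 values of these genes were under the lowest mock value.

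Genes for matrix and membrane proteins were among the rest. Mgp, a matrix protein that inhibits calcification, fell from 7.90, 12.9 and 14.2 CPM to 2.32, 1.99 and 1.43 CPM (log2 -2.69). Pcolce, an enhancer of procollagen processing, fell from 18.1, 19.8 and 15.003 CPM to 2.32, 3.23 and 2.15 CPM (log2 -2.74). Ly9, a receptor of the SLAM family, fell (log2 -2.69), as did the sorting receptor Sorcs2 (-2.72) and Notum, a secreted enzyme that inactivates Wnt proteins (-2.51). Metabolic and regulatory genes were also among them. Acsl6, an acyl-CoA synthetase, fell (log2 -2.98), as did the imprinted gene Mest (-2.88), the Rac-directed GTPase activator Chn2 (-2.89) and the transcription factor Myb (-2.41). Susd1 (-2.42), Olfm1 (-2.32) and A830082K12Rik (-2.32) completed the 15 largest falls. The largest adjusted p among these 12 was 0.000148, for A830082K12Rik.

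**Figure D2:**
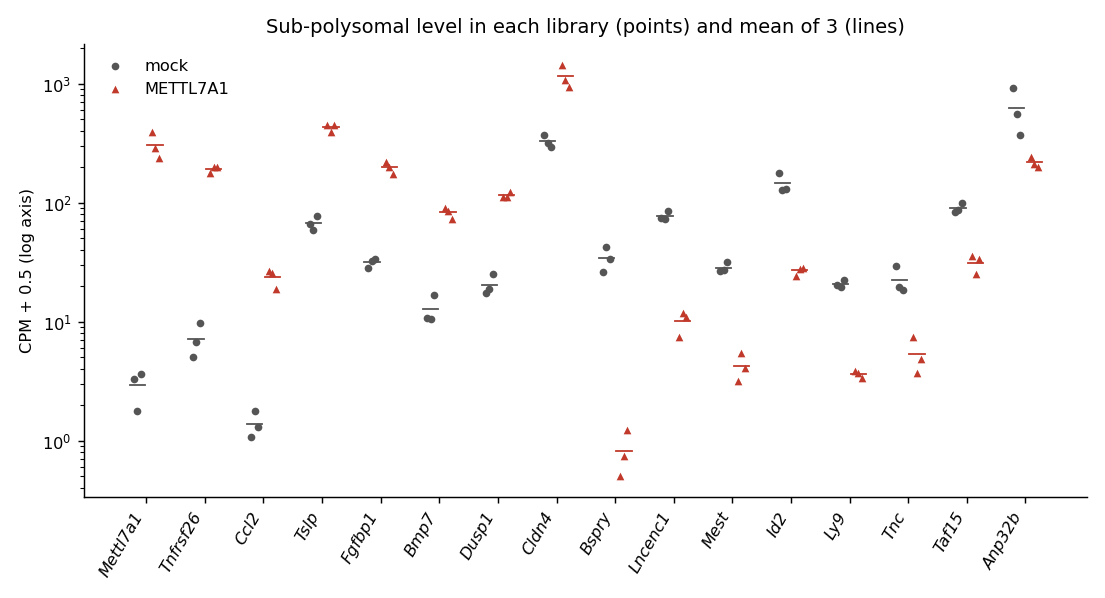
Level of 16 genes named in the text in each sub-polysomal library, as CPM plus 0.5 on a log axis, with mock as grey circles, METTL7A1 as red triangles and the mean of 3 libraries as a line. The groups do not overlap in any of the 16, and Anp32b shows the widest spread within mock, from 368 to 926 CPM.

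For 23 called genes the sub-polysomal libraries of 1 genotype held no read at all, 4 in mock and 19 in METTL7A1. All were weak, with 10 to 72 reads summed over the other genotype. They were chosen after their values were seen, since the limit of 5 CPM leaves them out of the lists above. Fam184a had 72 reads in mock and none in METTL7A1, which is at least 26.9-fold lower against a floor of 3 reads over the group. Rnf113a2, a gene without introns related to a splicing factor, was at least 23.9-fold lower, Asb16 at least 19.1-fold and Cplx2, a regulator of synaptic vesicle release, at least 16.4-fold. In polysomal RNA of METTL7A1 cells these 4 genes had no read either, against 228, 103, 51 and 113 in mock. Ldhb, a subunit of lactate dehydrogenase, had 15 sub-polysomal reads in mock and none in METTL7A1, and 72 against 0 in polysomal RNA. In the other direction Dpp7, a lysosomal dipeptidyl peptidase, had none in mock and 47 in METTL7A1, at least 13.98-fold higher. Adamts4, a protease that cleaves aggrecan, had none in mock and 26 in METTL7A1, at least 7.73-fold higher. In polysomal RNA mock cells did hold reads of Adamts4, 15 against 80 in METTL7A1, and Dpp7 had 1 against 111.

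Immune signalling genes rose as a group more often than they fell. Of 27 tested chemokines, cytokines and colony stimulating factors, 12 rose and 4 fell at an adjusted p below 0.05, with a median log2 change of 0.61, where the median over all genes tested was close to 0. The list's median was 0.39 when METTL7A1 library D was left out. The summed level of leukocyte markers is given above, and its part in these rises was not tested. Ccl20, a chemokine for dendritic cells and lymphocytes, rose from 11.3, 12.3 and 15.99 CPM to 49.1, 45.2 and 42.8 CPM (log2 1.74, adjusted p = 3.36e-06), and Il23a, a subunit of interleukin-23, from 111, 96.9 and 102 CPM to 338, 255 and 228 CPM (log2 1.41, adjusted p = 4.93e-06). Among 14 TNF and death receptors, 9 rose and 1 fell (median 0.78). The most abundant, Tnfrsf12a, the receptor for TWEAK, went from 1952, 3145 and 2961 CPM to 7385, 6129.6 and 5694 CPM (log2 1.25, adjusted p = 0.000484, and 0.78 with GC offsets). Interferon response genes had a median of 0.22 over 45 genes, with 11 up and 4 down. Called members pointed both ways: the antiviral genes Oasl1 (log2 1.68) and Rsad2 (2.11) rose, whereas Ifit2 fell (-2.20). MHC class I and antigen presentation genes, 22 in number, had 8 rises and 1 fall in this pool, with a median of 0.41 against 0.71 in polysomal RNA. With GC offsets 4 rose and 1 fell (median 0.27). B2m, the light chain of MHC class I, rose by a log2 of 0.60 (adjusted p = 0.0116).

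Immediate early genes, which respond within minutes to growth factors and stress, rose in most cases. Of 32 tested, 22 rose and 3 fell, with a median log2 change of 0.79. Dusp1, a phosphatase that switches off MAP kinases, rose from 16.9, 18.3 and 24.5 CPM to 111, 112 and 121 CPM (log2 2.49, standard error 0.17, adjusted p = 1.43e-08). Ier5 rose from 27.7, 21.1 and 20.9 CPM to 99.8, 110.4 and 88.7 CPM (log2 2.13, adjusted p = 2.50e-08). Maff, a small Maf transcription factor, rose from 45.7, 40.3 and 33.95 CPM to 143, 115 and 118 CPM (log2 1.67, adjusted p = 6.08e-07). These 3 were the called members, and Csrnp1, a nuclear protein induced by growth signals, rose by 1.37. Members of the list are rich in GC, with a median of 55.7% against 49.7% over all genes tested, and with offsets for GC content the median was 0.43, with 14 up and 3 down. In polysomal RNA their median was 0.43. The NF-kB pathway and feedback list moved little, with 6 of 26 up, 4 down and a median of 0.07, and with GC offsets 2 were up and the median was -0.12.

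Proteases of the extracellular matrix and their inhibitors rose more often than they fell, with 18 of 38 up, 1 down and a median of 0.58. Mmp9, a gelatinase, rose from 126, 123 and 102 CPM to 494, 447 and 416 CPM (log2 1.96, adjusted p = 6.96e-07). The serpins, which inhibit proteases, went both ways: Serpind1 rose by 3.54 and Serpina3h by 2.29, whereas Serpinb6b fell from 11.9, 12.9 and 9.28 CPM to 0.663, 2.73 and 3.11 CPM (log2 -2.26). Serpina3g and Serpina3h are near copies, and their reads may be split between them. Tight junction genes included 3 called claudins. Cldn4 was the most abundant of them, at 367, 316 and 295 CPM in mock and 1443, 1066 and 938 CPM in METTL7A1 (log2 1.82, adjusted p = 1.52e-06), followed by Cldn3 (1.95) and Cldn23 (1.87). Over the 27 members 8 rose, 1 fell and the median was 0.28, against 0.17 with GC offsets and 0.16 without mock replicate B.

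The epithelial and mesenchymal lists did not move one way. In the epithelial program 9 of 35 genes rose and 5 fell (median -0.03), and in the mesenchymal program 3 of 16 rose and 2 fell (median -0.19). With GC offsets these counts were 7 and 7, and 3 and 5, and without mock replicate A the mesenchymal median was -0.12. Prss8, a membrane serine protease of epithelia, rose by 1.91, whereas Cd24a, a surface sialoglycoprotein, fell from 2560.3, 1925 and 2159 CPM to 830.3, 851 and 851 CPM (log2 -1.39, adjusted p = 9.34e-05) and Epcam, the epithelial adhesion molecule, (log2 -0.71). Krt8, a keratin of simple epithelia, rose by 0.81, and its partner Krt18 gave a log2 of 0.05 (adjusted p = 0.829). With GC offsets these values were 0.39 (adjusted p = 0.0494) and -0.33 (adjusted p = 0.0814). Postn, a matrix protein of mesenchyme, rose by 2.24 at a level under 8 CPM. Col5a1 fell (log2 -1.88) and Col7a1, the anchoring fibril collagen, rose by 1.52 (0.91 with GC offsets). With GC offsets 8 of 22 collagen and basement membrane genes fell in place of 3, and their median went from 0.08 to -0.32.

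Genes of lipid metabolism rose more often than they fell, with no called member in either list. In cholesterol synthesis and uptake, 15 of 34 genes rose and none fell (median 0.41, and 0.50 in polysomal RNA). Srebf2, the transcription factor that controls the pathway, went from 61.5, 64.8 and 56.1 CPM to 193, 148 and 138 CPM (log2 1.39, adjusted p = 3.27e-06, and 0.92 with GC offsets). Its target Sqle, a rate-limiting enzyme of the pathway, went from 78.4, 94.4 and 92.4 CPM to 163, 175 and 150.2 CPM (log2 0.87, adjusted p = 0.000142). Of 37 lipid droplet, triglyceride and fatty acid genes, 13 rose and 2 fell (median 0.35). Fitm2, which helps lipid droplets bud, rose by 1.13, and Plin2, a protein of the droplet surface, by 0.74. Solute carriers, the largest list of transporters, had 49 rises and 14 falls among 184 genes (median 0.21, and 0.13 without METTL7A1 replicate D). The folate carrier Slc19a1 rose from 46.8, 44.4 and 40.3 CPM to 202, 165 and 137 CPM (log2 1.95, adjusted p = 1.46e-07), and Slc44a3, of the choline transporter-like family, fell (log2 -1.58).

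Stress pathways differed among themselves. In the unfolded protein response and ER chaperone list 10 of 32 genes rose and 4 fell (median 0.20, and 0.57 in polysomal RNA). Their median was 0.31 with GC offsets, 0.11 without mock replicate C and 0.13 without METTL7A1 replicate D. Sdf2l1, an ER-resident protein, rose from 19.8, 22.03 and 23.1 CPM to 76.3, 69.2 and 67.4 CPM (log2 1.69, adjusted p = 8.88e-07), and Manf, a secreted ER stress protein, by 1.07. Integrated stress response genes fell more often than they rose, with 13 of 38 down, 6 up and a median of -0.36. Mthfd2, a mitochondrial enzyme of folate metabolism, fell from 128, 153 and 136 CPM to 59.7, 53.3 and 58.1 CPM (log2 -1.29, adjusted p = 3.30e-06) and Chac1, which degrades glutathione, from 40.1, 51.3 and 37.5 CPM to 17.9, 18.9 and 16.5 CPM (log2 -1.27, adjusted p = 2.31e-05). Atf5, a transcription factor of the same response, rose by 1.26 (adjusted p = 0.000356), and by 0.64 with GC offsets (adjusted p = 0.0149). With GC offsets 3 genes of the list rose and 15 fell. Heat shock and chaperonin genes had 18 falls and 11 rises among 72 (median -0.21), and with GC offsets 12 falls and 9 rises (median -0.09). The small heat shock protein Hspb8 rose from 41.8, 55.1 and 53.1 CPM to 201, 227 and 236 CPM (log2 2.13, adjusted p = 1.34e-08), while Cct6a, a subunit of the cytosolic chaperonin, fell from 266, 268 and 279 CPM to 136, 138 and 149.7 CPM (log2 -0.94, adjusted p = 0.000142).

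Genes for RNA-binding proteins often fell in this pool. Of 33 hnRNP and SR splicing factors none rose and 17 fell at an adjusted p below 0.05, with a median of -0.49, and in polysomal RNA none passed the test (median -0.07). Over all genes tested, 1185 rose (9.69%) and 1012 fell (8.28%) in polysomal RNA. Hnrnpa1, a nuclear RNA-binding protein with roles in splicing, fell from 369.6, 269 and 358 CPM to 165, 169 and 165 CPM (log2 -1.00, adjusted p = 0.000162), with a polysomal log2 change of -0.04. Hnrnpa3 fell from 349, 220.3 and 266 CPM to 143, 127 and 132 CPM (log2 -1.05, adjusted p = 0.000183), against -0.04 in polysomal RNA. DEAD-box and DEAH-box helicases also had falls and no rise, with 13 of 49 down, none up and a median of -0.17. Ddx50, a nucleolar helicase, fell from 89.2, 89.7 and 89.8 CPM to 43.8, 47.9 and 50.7 CPM (log2 -0.91, adjusted p = 5.16e-05), against 0.11 in polysomal RNA. No gene passed the edgeR test of the difference between pools at an adjusted p below 0.05 (smallest 0.0939), and other tools are given below. Of 18 m6A writers, readers and erasers, 8 fell and 1 rose (median -0.32). Mettl16, a methyltransferase of U6 and of structured hairpins, fell (log2 -0.95) and Virma, a scaffold of the writer complex, (log2 -1.01). The median GC content was 42.9% for hnRNP and SR genes, 45.4% for m6A genes and 49.8% for helicases. With GC offsets 11 hnRNP and SR genes fell and 1 rose (median -0.35), among helicases 11 fell (median -0.10), and among m6A genes 7 fell and 1 rose (median -0.15). Without METTL7A1 replicate D the medians were -0.11 for helicases and -0.21 for m6A genes. Scaled to Actb, the medians were -0.25 for hnRNP and SR genes and 0.09 for helicases, where all genes stood at 0.26.

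Of 83 cytosolic ribosomal protein genes, 14 rose and 5 fell (median 0.28), a share of rises like that of all genes (16.8%), and none passed the test in polysomal RNA (median -0.09). Without mock replicate A the sub-polysomal median was 0.12. Rps14 rose from 3295, 4089 and 2966 CPM to 8315, 7769.5 and 6463 CPM (log2 1.12, adjusted p = 0.000341), and Rps6, another protein of the small subunit, fell from 513, 737 and 779 CPM to 394, 455 and 373 CPM (log2 -0.73, adjusted p = 0.0021, and -1.25 with GC offsets). Ribosomal protein genes have many processed copies in the genome, which may take part of their reads. Eef1a1, the factor that brings tRNA to the ribosome, fell from 2366, 2772 and 3130.4 CPM to 1170.2, 1317 and 1246 CPM (log2 -1.15, adjusted p = 0.000117), and Tpt1, an mRNA of the same terminal oligopyrimidine class, (log2 -0.79). Of 54 initiation factors 7 rose and 8 fell, shares near those of all genes. Eif6, which keeps the ribosomal subunits apart, rose by 0.94 (0.45 with GC offsets), whereas Eif5b, which joins them, fell (log2 -0.86). Of 37 aminoacyl-tRNA synthetase genes 7 rose and 7 fell. Among 11 mRNAs whose proteins the study tested for binding to METTL7A1, 5 fell and none rose (median -0.38), and with GC offsets 3 fell (median -0.15).

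Nuclear genes for mitochondrial proteins rose more often than they fell. Of 91 oxidative phosphorylation genes 22 rose and 6 fell (median 0.22, and -0.02 in polysomal RNA), and of 79 mitochondrial ribosomal protein genes 19 rose and 3 fell (median 0.21, and -0.07). Without mock replicate A these sub-polysomal medians were 0.13 and 0.11. Cyc1, a subunit of respiratory complex III, rose from 255, 307 and 329.9 CPM to 858, 755 and 668 CPM (log2 1.35, adjusted p = 4.92e-06, and 0.72 with GC offsets). Mrpl54 rose from 119, 180.0 and 154 CPM to 384, 403 and 412 CPM (log2 1.40, adjusted p = 7.18e-05, and 0.83 with GC offsets). Transcripts of the mitochondrial genome itself showed 1 rise and 1 fall among 15. Proteasome subunits fell more often than they rose (11 down and 5 up of 38). Psmd1, of the regulatory particle, fell (log2 -0.92), and Psmb8, a subunit of the immunoproteasome, rose by 1.10.

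Several signalling and cell cycle lists had medians near 0. Of 63 cell cycle and mitosis genes 14 rose and 9 fell, of 39 TGF-beta genes 6 and 5, of 35 Hippo pathway and YAP target genes 4 and 8, of 33 Wnt genes 6 and 6, and of 25 p53 targets 5 and 7. Wnt7b, a Wnt ligand, rose from 169, 183 and 172 CPM to 533, 441 and 395 CPM (log2 1.38, adjusted p = 4.93e-06, and 0.82 with GC offsets), and Sfrp1, a secreted Wnt inhibitor, fell from 25.4, 22.98 and 18.4 CPM to 7.63, 8.93 and 9.80 CPM (log2 -1.29, adjusted p = 8.95e-05). Cdkn1a, the p53 target that halts the cell cycle, rose by 1.03, and Perp, another p53 target, fell (log2 -0.96). Glycolysis and hypoxia genes had 3 rises and 9 falls among 43. The glucose carrier Slc2a1 rose by 1.04 and the hypoxia marker Car9 fell (log2 -1.27). Among guidance genes 10 of 42 rose, among them the ephrin receptor Ephb3 (1.73), and 6 fell. With GC offsets rises and falls numbered 19 and 6 for cell cycle (median 0.14), 7 and 9 for TGF-beta and 7 and 5 for guidance genes. In that fit 1630 of all 12157 genes rose, a smaller share than in the cell cycle list, and 1477 fell. The 12 tested S100 genes had 5 rises and no fall (median 0.52, and -0.06 in polysomal RNA).

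**Figure D3:**
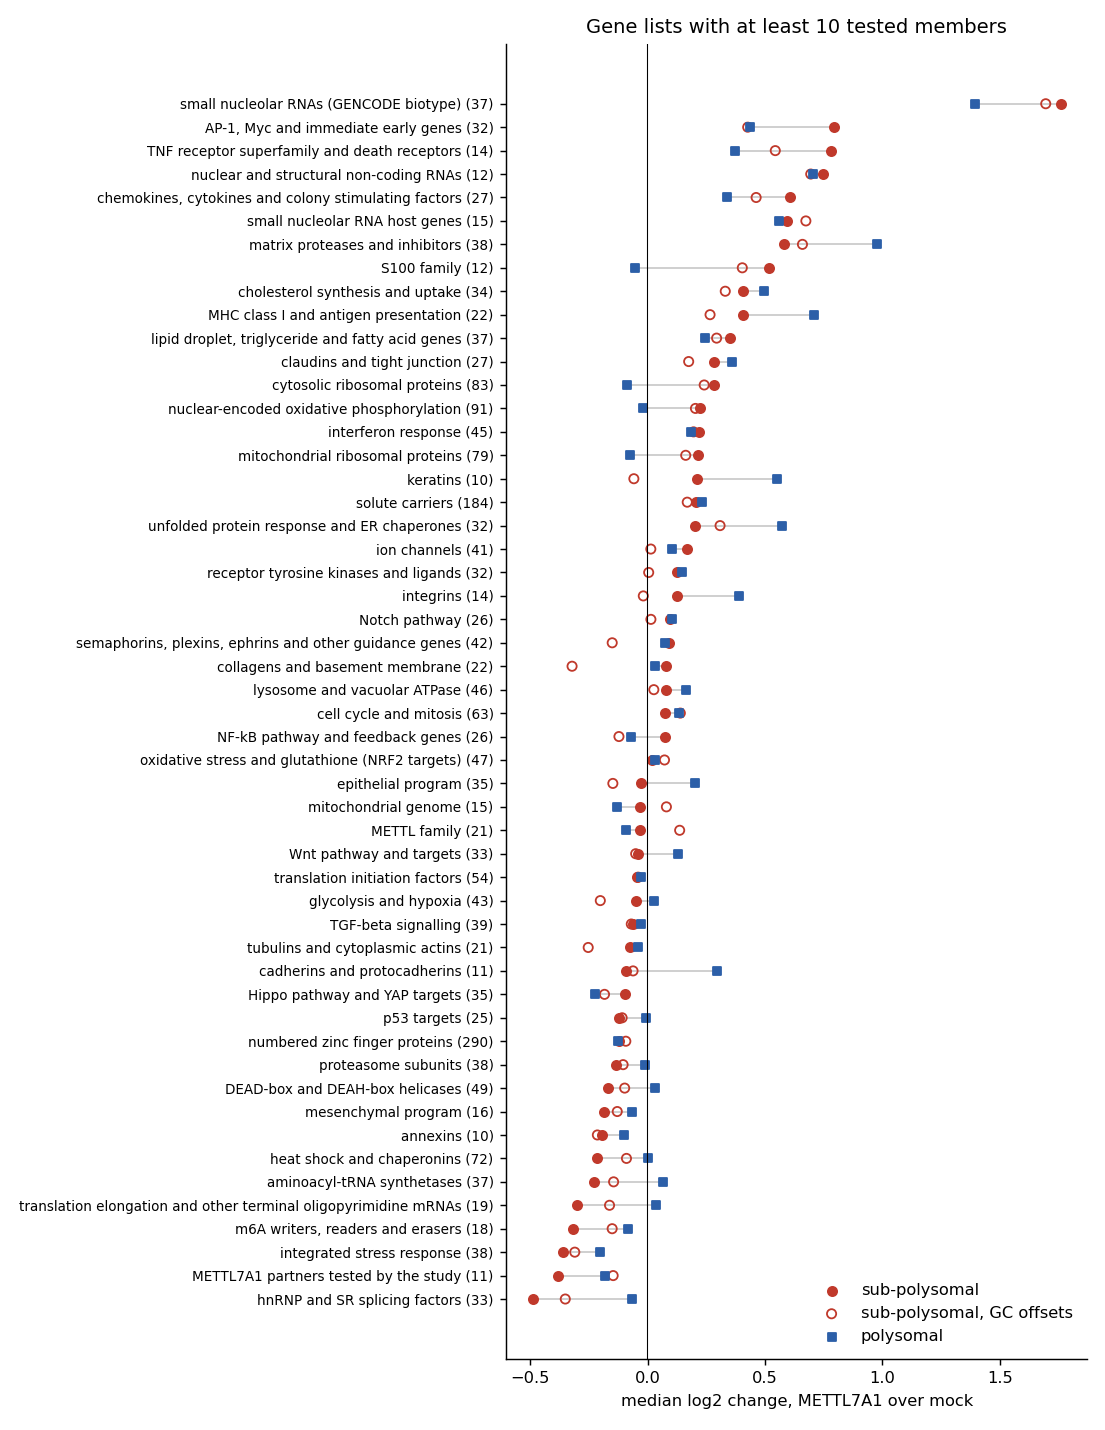
Median log2 change, METTL7A1 over mock, of the tested members of gene lists with at least 10 of them (number in brackets), in sub-polysomal RNA (red), in sub-polysomal RNA with offsets for GC content (open red) and in polysomal RNA (blue squares), with the median of all genes tested as a vertical line. Small nucleolar RNAs lie highest in both pools, and hnRNP and SR splicing factors lowest in sub-polysomal RNA while near 0 in polysomal RNA.

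Small non-coding RNAs of the nucleolus stood apart by size. Small nucleolar RNAs (snoRNAs) guide chemical changes of ribosomal RNA, with H/ACA members guiding pseudouridylation and C/D members guiding ribose methylation, and most are cut from introns of a host gene. The class was singled out after its values were seen. Of 37 tested snoRNAs, 12 were called higher and none lower, 23 rose at an adjusted p below 0.05 and none fell, and 35 of 37 had a log2 change above 0 (median 1.76, and 1.39 in polysomal RNA). Without any 1 sub-polysomal library the median lay between 1.56 and 1.86. Most were weak, with a median level of 2.22 CPM, and their median GC content of 48.7% was close to that of all genes. Only 37 of 1480 snoRNAs in the files passed the filter. A weak RNA can pass it through the libraries of 1 group alone, so the filter can favour RNAs that are high in that group. The part of the filter in the counts of rises, and in the comparison with host genes below, was not tested. Taken by gene name, the H/ACA and C/D families did not part: 5 of 11 H/ACA members and 5 of 12 C/D members were called higher, and the medians were 2.04 and 1.83. The other 14 snoRNAs, whose names give no family, had 2 called higher and a median of 1.58. Sequences of 4 called snoRNAs are given from GENCODE M21 (GRCm38), 5′ to 3′ in DNA letters, to show that both families are among them. Capitals mark the ACA near the 3′ end of H/ACA snoRNAs and the C box TGATGA and D box CTGA of C/D snoRNAs.
Snora73b: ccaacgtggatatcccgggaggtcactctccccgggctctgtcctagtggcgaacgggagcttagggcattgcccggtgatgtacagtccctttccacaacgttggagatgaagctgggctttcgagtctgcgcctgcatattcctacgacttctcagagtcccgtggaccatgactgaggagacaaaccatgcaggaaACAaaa
Snora57: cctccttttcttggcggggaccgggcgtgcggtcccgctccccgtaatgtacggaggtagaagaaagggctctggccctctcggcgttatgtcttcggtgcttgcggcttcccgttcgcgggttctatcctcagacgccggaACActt
Snord104: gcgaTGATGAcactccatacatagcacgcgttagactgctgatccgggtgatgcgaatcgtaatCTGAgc
Snord65: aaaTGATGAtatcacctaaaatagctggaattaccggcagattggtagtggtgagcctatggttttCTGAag

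Snora73b lies at chr4:132352322-132352526 inside Snhg3, Snora57 at chr19:8888538-8888685, Snord104 at chr11:106500993-106501062 and Snord65 at chr11:62604515-62604586 inside the non-coding gene 2410006H16Rik. Snora57 had 5, 12 and 40 reads in mock A, B and C and 72, 94 and 128 in METTL7A1 D, E and F, or 2.82, 3.78 and 7.90 CPM against 23.9, 23.3 and 30.6 CPM (log2 2.25, standard error 0.26, adjusted p = 8.44e-06). Snora68 had 0, 2 and 12 against 46, 33 and 68 reads (log2 3.27, adjusted p = 8.34e-05), and Snora73b 1, 6 and 14 against 66, 60 and 79 (log2 3.16, adjusted p = 3.91e-05). The groups did not overlap in 25 of the 37 snoRNAs, with METTL7A1 higher in all 25. Snora73b and Snora73a are near copies, and reads can be split between the pair.

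Host genes moved less than the snoRNAs inside them. For 31 snoRNAs a gene that contains them on the same strand was tested and is reported, and the snoRNA's change was above that of the host in 27 of 31. Some hosts, such as Snhg1 and Rps12, hold several of these snoRNAs and are counted once for each, so the pairs are not separate comparisons. On this count, median log2 changes were 1.68 for these snoRNAs and 0.51 for their hosts. Counted likewise, the host rose at an adjusted p below 0.05 for 7 and fell for 1. Snhg3 rose by 1.71 beside Snora73b at 3.16, whereas Tpt1 fell (log2 -0.79) beside Snora31, which gave 2.21 (adjusted p = 0.016) and lost the threshold without mock replicate C and without METTL7A1 replicate F. Among the 15 tested Snhg genes, 7 rose and none fell (median 0.59), with 4 called. Of 7 tested replication-dependent histone genes, whose mRNAs lack a poly(A) tail, all 7 rose (median 1.72, and 1.71 in polysomal RNA), 5 of them called. Hist1h1c, a linker histone, rose from 22.01, 43.7 and 32.8 CPM to 102, 109 and 97.6 CPM (log2 1.61, adjusted p = 6.78e-06). Histone genes are near copies of each other, and only 7 of 70 in the files passed the filter. Those 7 had a median level of 8.18 CPM and a median exon length of 2146 bases. The filter can favour genes that are high in 1 group, as for snoRNAs, and its part in these rises was not tested. How well the libraries capture RNA without a poly(A) tail was not tested either.

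**Figure D4:**
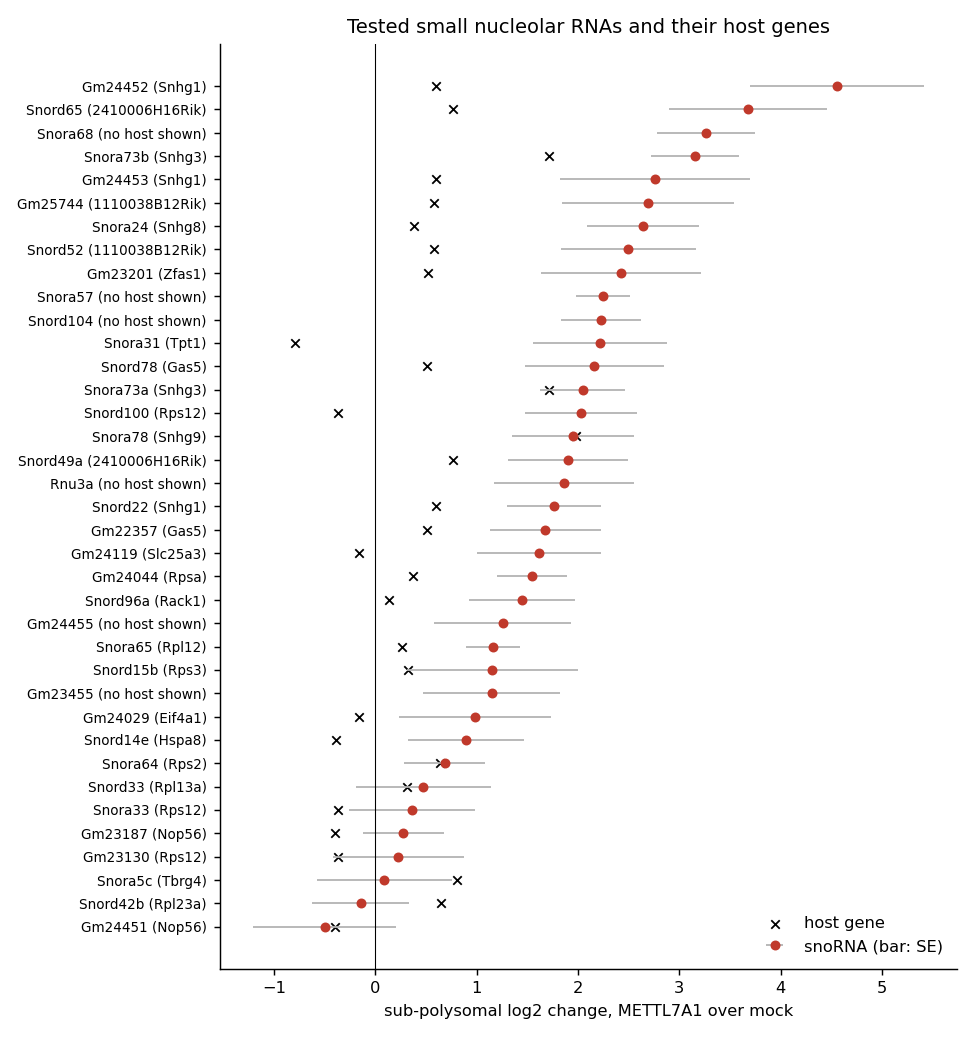
Sub-polysomal log2 change, METTL7A1 over mock, of the 37 tested snoRNAs (red, with standard error) and of the gene that contains each on the same strand, where shown (black cross, name in brackets). The snoRNA lies to the right of its host in 27 of 31 pairs, some of which share a host, and 35 of the 37 lie above 0.

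Changes in sub-polysomal RNA followed the GC content of transcripts. Across 12157 genes, Spearman's rank correlation between the log2 change and GC content was 0.39 in sub-polysomal and 0.12 in polysomal RNA, as a description across genes that share their libraries. With genes split into 5 equal groups by GC content, 4.19% rose and 21.9% fell at an adjusted p below 0.05 in the group poorest in GC, and 41.2% rose and 4.24% fell in the richest. The trend differed in strength between single libraries and was weak in mock B and METTL7A1 F. The rank correlation between a library's deviation from the mean of the 6 and GC content was -0.39, -0.03 and -0.43 in mock A, B and C. It was 0.47, 0.36 and 0.09 in METTL7A1 D, E and F. The groups did not overlap, but mock B and METTL7A1 F lay close to each other. With each library's trend taken out, 130 genes were called higher and 139 lower, and 116 of the 183 and 122 of the 154 called genes were called again. Among called genes the sign held under GC offsets in all 154 falls and in all 182 rises with a known GC content. The remaining called rise had no GC value and was not in that fit. Which part of the trend came with the genotype and which with the preparation of the libraries cannot be told apart.

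Whole chromosomes differed in their typical change. Over 440 tested genes of chromosome 12 the median log2 change was -0.49, with 79.3% of genes below 0, 41.8% falling and 6.14% rising at an adjusted p below 0.05. Relative to the mock mean, and over genes with at least 5 CPM, the chromosome's median was 0.04, -0.01 and 0.00 in mock A, B and C and -0.53, -0.46 and -0.45 in METTL7A1 D, E and F. Chromosomes 14 (-0.31), 13 (-0.27) and 3 (-0.23) were also low. Chromosomes 15 (0.29) and 17 (0.28) were the highest, with 33.0% and 28.2% of genes rising. All 6 kept their sign in polysomal RNA, where the medians of chromosomes 12, 14 and 15 were -0.40, -0.23 and 0.20, and with GC offsets, where they were -0.39, -0.22 and 0.21. Scaled to Actb, chromosome 12 stood at -0.23 and chromosome 14 at -0.05, where the median of all genes was 0.26.

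The shift was uneven along some chromosomes. Split by position into 3 parts of equal gene number, chromosome 15 had medians of -0.27, 0.67 and 0.42, chromosome 17 0.42, 0.38 and -0.08, and chromosome 12 -0.61, -0.52 and -0.21. Chromosome 10, with a median of 0.10 over its whole length, went from -0.68 in the first part to 0.56 and 0.23 in the others, and in polysomal RNA from -0.48 to 0.30 and 0.29. On chromosome 14 the 3 parts were alike (-0.31, -0.31 and -0.31). Mettl7a1 itself lies in the last part of chromosome 15. Id2, among the largest falls, is on chromosome 12, as is the cluster of 3 called falls Dnal1, Ptgr2 and Rnf113a2. Of genes called higher, 45 of 183 (24.6%) had another called rise within 200 kb, where 8.59% of the other tested genes had a called rise that near, and overlapping snoRNA and host genes are among them. For called falls the shares were 7.14% and 5.06%.

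**Figure D5:**
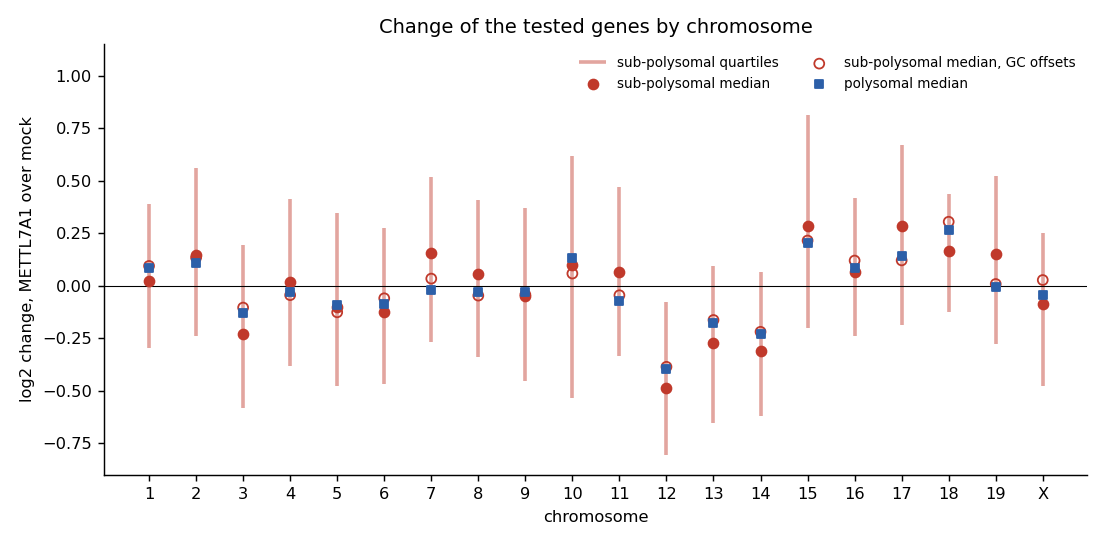
Median (red) and quartiles (bar) of the sub-polysomal log2 change of tested genes on each chromosome, with the median under GC offsets (open red) and in polysomal RNA (blue squares). Chromosomes 12, 13 and 14 lie below 0 and chromosomes 15 and 17 above it by all 3 measures.

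Promoters of the called genes were searched for 5 short motifs on both strands, in windows from 250 bases before to 50 after the start (RefSeq, GRCm38.p6). A table entry was found for 9030 of the 12224 genes tested, 115 of the 183 called higher and 119 of the 154 called lower. The AP-1 motif TGANTCA was held by 13.9% of called rises, 10.9% of called falls and 6.35% of all genes tested. The TATA box TATAAA was held by 15.7%, 10.1% and 8.22%, the TEAD motif GGAATG by 16.5%, 12.6% and 14.3%, and the E-box CACGTG by 13.9%, 10.1% and 12.2%. The NF-kB motif GGGANTTCC was rare, in 1 called rise, 2 called falls and 2.85% of all genes. These are matches of letters and not known binding sites. Among the 3 largest rises and falls, Tnfrsf26 and Ccl2 had no entry. The 250 bases before the start are given for Bspry and Acsl6, the 2 largest falls, with matches in capitals, the TATA box in Bspry and the AP-1 motif in Acsl6, the first of its 3 starts.
Bspry chr4:62479812-62480061, plus strand: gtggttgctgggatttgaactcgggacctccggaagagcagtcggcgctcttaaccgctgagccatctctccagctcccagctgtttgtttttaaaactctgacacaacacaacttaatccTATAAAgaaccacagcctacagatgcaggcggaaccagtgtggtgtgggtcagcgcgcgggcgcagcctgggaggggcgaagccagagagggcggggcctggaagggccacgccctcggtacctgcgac
Acsl6 chr11:54303574-54303823, plus strand: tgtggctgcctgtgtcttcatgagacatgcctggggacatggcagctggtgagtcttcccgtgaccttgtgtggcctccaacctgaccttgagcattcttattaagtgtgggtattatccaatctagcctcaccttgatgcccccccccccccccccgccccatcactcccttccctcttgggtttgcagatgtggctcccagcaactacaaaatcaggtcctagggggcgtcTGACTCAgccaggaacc

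The sub-polysomal and the polysomal change were set side by side to see which genes differed between the pools. Of the 183 called rises 180 were also above 0 in polysomal RNA and 148 rose there at an adjusted p below 0.05, and of the 154 called falls 151 were below 0 and 121 fell. Both pools came from the same cells. Called rises had a median of 1.98 in sub-polysomal and 1.64 in polysomal RNA, and called falls -2.25 and -1.96, where selection in the first pool favours the larger value there. No gene passed the test of the difference itself at an adjusted p below 0.05 in edgeR (smallest 0.0939), with 1911 genes at an unadjusted p below 0.05. DESeq2 gave 216 genes with the larger sub-polysomal change and 152 with the smaller, and limma-voom gave 0.

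Called genes with the widest gap between pools, among those with at least 5 CPM in both, numbered 5 on each side by the naming rule. Zfp276, a zinc finger protein, rose from 7.34, 5.35 and 4.74 CPM to 18.2, 13.9 and 16.7 CPM in sub-polysomal RNA (log2 1.56) with a polysomal log2 change of 0.23, a difference of 1.33 (adjusted p = 0.114, edgeR). Map3k11, a kinase upstream of JNK, rose from 17.5, 26.1 and 22.3 CPM to 81.6, 67.7 and 52.4 CPM (1.58) against 0.41 in polysomal RNA (difference 1.17, adjusted p = 0.114, edgeR). Sp6 (2.48 against 1.16), Shf (1.61 against 0.36) and the calcium-binding protein S100a13 (2.00 against 0.87) followed. On the other side Taf15, an RNA-binding protein of the FET family, fell from 83.5, 86.9 and 98.5 CPM to 34.8, 24.8 and 32.8 CPM (log2 -1.55) and gave -0.18 in polysomal RNA (difference -1.37, adjusted p = 0.108, edgeR). Tnc, the matrix protein tenascin-C, fell from 28.8, 19.2 and 17.96 CPM to 6.96, 3.23 and 4.30 CPM (-2.17) against -0.71 (difference -1.46, adjusted p = 0.114, edgeR). Anp32b, an acidic nuclear phosphoprotein and histone chaperone, fell from 926, 557 and 368 CPM to 243, 210.2 and 197 CPM (-1.51) against -0.26, and its mock values spread widely. Fn3krp (-1.51 against -0.17) and Maged2 (-1.52 against -0.26) completed the 10. With GC offsets the sub-polysomal change of Map3k11 was 0.96, that of Shf 0.91 and that of Zfp276 1.09, whereas Taf15 stood at -1.46 and Tnc at -2.26.

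The 9 mRNAs that the study followed across gradient fractions had mixed changes in this pool. The study chose them on its own samples, so they are not independent evidence of a direction. It measured them by qRT-PCR in gradient fractions, scaled to total mRNA, and reported a shift towards polysomal fractions. The values here are levels within a pool, not scaled to total mRNA, and are not a like measure of that shift. In polysomal RNA 3 of the 9 rose and 0 fell at an adjusted p below 0.05 in edgeR (median 0.02). Cldn3 rose from 113, 131 and 96.3 CPM to 601, 445 and 263 CPM (log2 1.95, standard error 0.23, adjusted p = 9.87e-06), and with GC offsets its change was 1.25. Itgb2, an integrin chain of leukocytes, rose from 50.8, 39.03 and 34.2 CPM to 100.47, 86.3 and 74.6 CPM (log2 1.10, adjusted p = 0.000162). The helicase Ddx5 fell from 298, 240.5 and 285 CPM to 141, 156 and 163 CPM (log2 -0.84, adjusted p = 0.000948), and Pabpc1, the poly(A)-binding protein, (log2 -0.61, adjusted p = 0.0233). Yap1, the effector of the Hippo pathway, fell (log2 -0.40, adjusted p = 0.0408) and the helicase Eif4a2 (log2 -0.42, adjusted p = 0.0326). With GC offsets Pabpc1 gave -0.37 (adjusted p = 0.169), Yap1 -0.15 (adjusted p = 0.421) and Eif4a2 -0.19 (adjusted p = 0.367). These 3 falls also lost the threshold of 0.05 when METTL7A1 library D or METTL7A1 library E was left out. Pawr (0.13), Khsrp (-0.15) and Eif4g1 (0.19) did not pass the test. With GC offsets Khsrp fell (-0.59, adjusted p = 0.00522), and Pawr (-0.24) and Eif4g1 (-0.04) changed sign without passing it. Of the 2 controls, Actb (log2 -0.26, adjusted p = 0.23) and Mmp14 (-0.42, adjusted p = 0.145) did not pass the test, and with GC offsets Mmp14 fell (-0.67, adjusted p = 0.0178) while Actb gave -0.27 (adjusted p = 0.217). Mmp14 also passed with thinned libraries and when METTL7A1 library D was left out.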

How the data were processed

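RNA of pooled sub-polysomal (fractions 3 to 7) and polysomal (fractions 8 to 11) gradient fractions was sequenced. The paper describes rRNA-depleted, stranded libraries for total RNA of mock and METTL7A1 cells. It gives no separate preparation for the pools, and whether theirs was the same was not tested. The values are raw gene counts deposited by the authors, who aligned reads to GRCm38 (mm10) with STAR 2.5.3a and counted them with featureCounts. The strand setting of the counting is not given in the sources used here, so overlapping and antisense genes may share reads.

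The filter kept genes that reached 1 CPM in 3 or more of the 12 libraries, 12224 of 55376. All 12 libraries entered 1 fit of edgeR 4.0.16 (quasi-likelihood test, TMM factors, R 4.3.3) with genotype and pool combined into 4 groups, with Benjamini-Hochberg adjustment over all tested genes. Printed log2 changes are METTL7A1 over mock from this fit, with standard errors, and CPM is a count scaled to each library's total in tested genes times its TMM factor. Calls needed an adjusted p below 0.01 and a log2 change beyond 1.5, the stricter of the 2 rules used. Offsets for GC content were taken from a smooth trend per library, with the GC content and biotype of genes from GENCODE M21 (GRCm38). Coordinates and exon lengths of genes were those deposited with the authors' counts. limma 3.58.1 and DESeq2 1.42.0 served as alternatives, as did other scalings, filters, thinning and leaving out each replicate. Scripts were tested on simulated data.

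Named genes were Mettl7a1, the 15 largest called rises and falls with a mean of at least 5 CPM, called members of gene lists, up to 4 members of each list with the smallest adjusted p, the mRNAs followed by the study, and the 5 called genes on each side with the widest gap between pools. Cell type markers, snoRNAs and genes with no read in 1 genotype were named beside them, the latter groups after their values were seen. Some genes and 1 gene list are not reported here. Members and lists were chosen with earlier results of these data known. Whether the replicates came from separate cultures beyond the label biological triplicates is not given, so p values measure the spread between these libraries. Replicate letters differ between genotypes (A, B, C and D, E, F) and tie the 2 pools of a replicate. The correlation of their deviations from the group means was -0.292 to 0.107, so the letters were not used as pairs.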

Additional observations from a re-analysis of the deposited data

How the results depend on the processing

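Counts of called genes stayed within 1.5 times under RLE factors, TMM factors within the pool, DESeq2, limma-voom, a fit of the 6 sub-polysomal libraries alone, GC offsets, no filter and no mitochondrial transcripts. Scaled to the Actb count, which moved the median of all genes by 0.259, 359 genes were called higher and 88 lower, and 3283 rose and 667 fell at an adjusted p below 0.05. With at least 10 counts in every sub-polysomal library, 8933 genes were tested, and 62 were called higher and 30 lower. This filter leaves out genes with few reads in 1 genotype, such as Bspry and Ccl2. Thinned to the shallowest library, 88 were called higher and 54 lower, and 936 rose and 709 fell. Leaving out each replicate in turn gave 152 to 196 called higher, 99 to 172 called lower (99 without METTL7A1 replicate E), 1586 to 2004 rises and 1259 to 1680 falls. Of the 183 called rises 108 were called in all 6 of these fits, and of the 154 called falls 67. Genes whose change differed between the pools at an adjusted p below 0.05 numbered 0 in edgeR and in limma-voom and 368 in DESeq2, and the cause was not tested. Of 2087 values of the 118 named genes under alternatives, 2032 kept their direction and their side of the threshold, 45 lost the threshold, 4 gained it, 6 values of genes that had not passed the test (Krt18, Eif4g1, Khsrp and Pawr) changed sign, and no called value reversed. GC offsets, the scaling to Actb and thinning gave the largest numbers of these changes. The fit without mitochondrial transcripts and the other tools for the difference between pools were chosen after seeing the data.

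With the replicate letter as a random block in limma-voom, 175 genes were called higher and 139 lower, and 2006 rose and 1637 fell, with a correlation within letters of 0.0291. A letter as a fixed block could not be fitted beside the genotype, because letters do not cross genotypes. The block changed no count by over 1.5 times.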
